A study of Mus musculus with 12 samples.

Results

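The genes described here carry glucose into the cell and through the first, committing steps of glycolysis. They are the glucose transporter gene Slc2a1, the hexokinase genes Hk1 and Hk2, the glucose-6-phosphate isomerase gene Gpi1, the phosphofructokinase genes Pfkl, Pfkm and Pfkp, and Pfkfb3, which makes the enzyme that sets the level of the phosphofructokinase activator fructose 2,6-bisphosphate. They were taken by symbol from the table of the series, and all 8 were among its 11806 genes and among the 10963 genes with an adjusted p. They were picked with the fold changes and p-values of this same comparison in view, so those values are given as a description and test nothing about the group.

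RNA was measured in 12 single ovarian follicles from CD-1 mice, an outbred stock, at 16 days of age. Of these follicles 6 had stayed fresh and 6 were vitrified, a form of cryopreservation in which water turns to glass instead of ice. Follicles of both groups were grown one by one in 0.5% alginate for 8 days, with recombinant follicle-stimulating hormone at 10 mIU/mL and insulin at 5 µg/mL, in wells of 100 µl of which 50 µl was renewed at intervals. How and at which stage follicles were vitrified, and which follicles shared an animal, are not stated in the sources used here, so the p-values measure the spread between follicles as if these were independent. The table gives the authors' comparison of the 2 groups, with 1 total per gene, read here as pooled over the libraries. No value of a single follicle was used.

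Glucose enters most cells through facilitative transporters of the SLC2 family, of which SLC2A1 is the widespread one of basal uptake. Hexokinase traps it as glucose 6-phosphate, the isomerase turns this into fructose 6-phosphate, and phosphofructokinase makes fructose 1,6-bisphosphate, the first product committed to glycolysis. In the growing follicle the granulosa cells are the main glycolytic cells, and they pass pyruvate and lactate to the oocyte, which uses glucose poorly. Many genes of glycolysis are known targets of hypoxia-inducible factor. Slc2a1, Hk2 and Pfkfb3 are among them, but are not the only ones of the genes described here. Hk1 is known as the steady hexokinase of most tissues.

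Vitrified follicles had less RNA of 3 of the 8 genes, Slc2a1, Hk2 and Pfkfb3, 1 each for transport, phosphorylation and the activator of phosphofructokinase. The other 5 did not pass an adjusted p of 0.05 per the authors' deposited table, and their fold changes ran from 1.57-fold lower for Pfkl to 1.15-fold higher for Gpi1 and Pfkm. In that comparison 0.529% of all tested genes passed in either direction and 0.283% passed as lower. Because the genes were picked on this contrast, the 3 of 8 is not read against those shares. The median log2 fold change of the 8 genes was -0.50, with 6 lower and 2 higher, against -0.02 over all tested genes, of which 53.2% were lower. An unadjusted p under 0.05 was found for 4 of the 8, and for 7.02% of all tested genes. In follicle RNA, fewer cells of a type and less RNA per cell cannot be told apart.

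The transporter gene Slc2a1 is on chromosome 4 from 119108711 to 119137983 on the plus strand of GRCm38. Its total was 573 and its signed fold change -3.50 per the authors' deposited table, with a log2 fold change of -1.81 (derived 95% interval -2.37 to -1.25), at an adjusted p of 7.0e-07. By unadjusted p it ranked 4 of 10963 genes, and a lower log2 fold change was found for 2 of the 3964 tested genes with a total within 2-fold of its own. On the linear scale the interval put vitrified follicles at 0.194 to 0.422 of the fresh level. Its derived standard error was 0.29, against a median of 0.24 for genes of like total.

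Of the hexokinase genes only Hk2 passed. Hk2, the inducible hexokinase, on chromosome 6 from 82725025 to 82774454 on the minus strand, had a total of only 167, a log2 fold change of -1.72 (-2.49 to -0.94), and passed with an adjusted p of 0.0068 per the authors' deposited table. Hk1, on the same strand of chromosome 10 from 62268855 to 62379908, had a total of 915, a log2 fold change of -0.14 (-0.67 to 0.39), at an unadjusted p of 0.60 per the authors' deposited table. Whether the changes of the 2 genes differ was not tested. At the derived error of Hk1 an estimated log2 fold change of at least 0.98 in size, or 1.98-fold, would have been needed to pass. This is the size of the estimate, so a true change in Hk1 near or below it could have been missed. For Hk2 the corresponding size was 1.45, or 2.73-fold.

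Pfkfb3, whose product is a kinase with little phosphatase activity and so favours fructose 2,6-bisphosphate, is on chromosome 2 from 11471433 to 11554077 on the minus strand. It fell 1.99-fold per the authors' deposited table, with a log2 fold change of -0.99 (-1.50 to -0.48), a total of 536 and an adjusted p of 0.033. It ranked 46 by unadjusted p among the 58 genes that passed, near the threshold. Read as normal statistics and set against a t distribution of 10 degrees of freedom instead, the p-values let 0 of the 8 genes and 0 of all tested genes pass, with 4 of the 8 and 498 of all at an unadjusted p under 0.05. With the Benjamini-Yekutieli adjustment, which allows for any dependence between genes, Slc2a1 alone of the 8 passed.

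**Figure D1:**
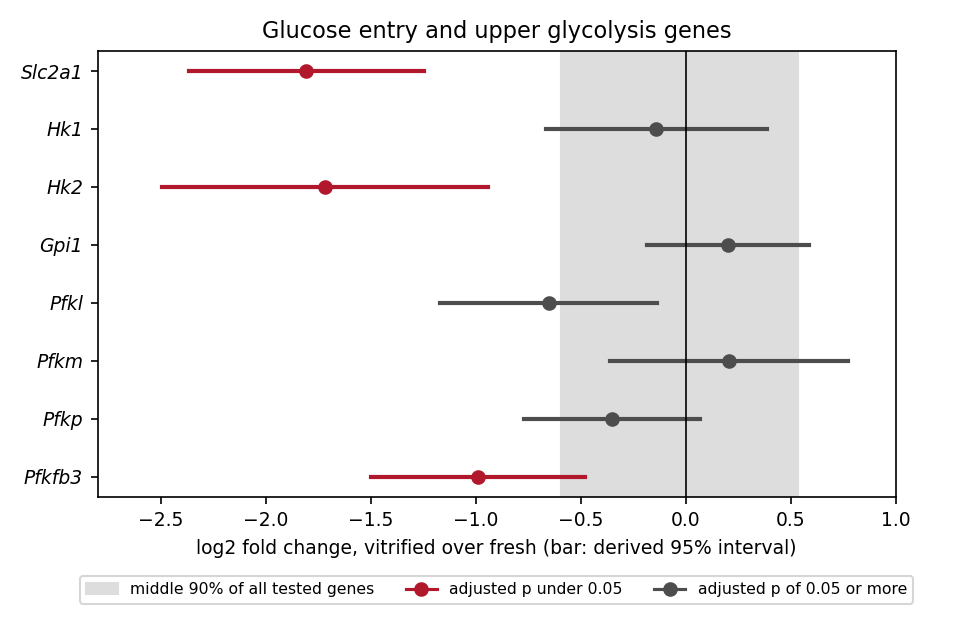
Log2 fold change of vitrified over fresh follicles for the 8 genes (points, from the authors' comparison) with derived 95% intervals (bars), and the middle 90% of all tested genes (grey band, -0.60 to 0.54). Slc2a1, Hk2 and Pfkfb3, in red, passed an adjusted p of 0.05, with points at -1.81, -1.72 and -0.99.

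Promoters of the 3 genes that fell are shown because each holds the core of the binding motif of hypoxia-inducible factor. Those of 3 genes that did not pass stand beside them because Pfkp holds more cores before its start than Slc2a1 or Hk2, Pfkm holds an E-box as Pfkfb3 does, and Gpi1 holds no core. They were chosen after the matches were seen. The sequences lie before the RefSeq start sites (GRCm38.p6), 5′ to 3′ on the strand of the gene, with matches to the core in capitals. They are 250 bases long, or 246 for Slc2a1, where at most 30 bases of a GENCODE exon of the same gene are printed. The core was searched as ACGTG or GCGTG on both strands, so that CACGT and CACGC mark a match on the other strand. An E-box, CACGTG, contains an ACGTG match on each strand.
Slc2a1, chr4:119108495-119108740, plus strand: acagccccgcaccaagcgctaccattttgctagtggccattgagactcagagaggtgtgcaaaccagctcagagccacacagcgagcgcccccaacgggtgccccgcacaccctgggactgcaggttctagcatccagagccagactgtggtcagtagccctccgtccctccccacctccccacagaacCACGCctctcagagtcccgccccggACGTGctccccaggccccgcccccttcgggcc
Hk2, chr6:82774455-82774704, minus strand: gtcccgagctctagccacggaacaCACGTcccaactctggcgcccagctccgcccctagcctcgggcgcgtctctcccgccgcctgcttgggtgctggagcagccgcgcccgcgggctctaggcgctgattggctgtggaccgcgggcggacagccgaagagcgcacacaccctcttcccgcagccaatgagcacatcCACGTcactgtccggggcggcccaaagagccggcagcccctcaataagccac
Pfkfb3, second start, chr2:11502091-11502340, minus strand: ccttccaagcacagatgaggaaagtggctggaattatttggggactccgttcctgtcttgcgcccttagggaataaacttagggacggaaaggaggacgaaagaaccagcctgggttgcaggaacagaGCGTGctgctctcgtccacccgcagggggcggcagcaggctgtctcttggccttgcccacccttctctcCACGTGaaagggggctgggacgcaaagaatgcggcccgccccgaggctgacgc
Pfkp, chr13:6648772-6649021, minus strand: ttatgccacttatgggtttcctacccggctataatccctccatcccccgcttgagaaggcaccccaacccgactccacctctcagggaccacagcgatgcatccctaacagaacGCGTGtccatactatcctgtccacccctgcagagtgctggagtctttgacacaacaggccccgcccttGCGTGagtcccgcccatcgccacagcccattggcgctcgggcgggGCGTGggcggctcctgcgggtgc
Pfkm, first start, chr15:98092339-98092588, plus strand: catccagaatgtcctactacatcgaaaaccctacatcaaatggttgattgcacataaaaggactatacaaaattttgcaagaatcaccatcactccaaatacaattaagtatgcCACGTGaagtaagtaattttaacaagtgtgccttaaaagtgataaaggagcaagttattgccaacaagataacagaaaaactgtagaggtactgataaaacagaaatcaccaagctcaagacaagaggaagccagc
Gpi1, chr7:34230337-34230586, minus strand: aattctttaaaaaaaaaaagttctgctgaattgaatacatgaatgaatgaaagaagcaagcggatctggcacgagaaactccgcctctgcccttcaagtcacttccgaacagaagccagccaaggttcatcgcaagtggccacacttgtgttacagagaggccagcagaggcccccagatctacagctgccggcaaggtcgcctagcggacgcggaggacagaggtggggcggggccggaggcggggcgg

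The RefSeq windows do not always lie before the gene as GENCODE annotates it. Of the 13 windows of the 8 genes, 6 lie wholly inside the annotated gene and 3 partly. The RefSeq start of Pfkl is 276 bases downstream of its GENCODE start, so its whole window is inside the gene. The second RefSeq start of Pfkfb3 is 51987 bases downstream of the GENCODE start. Its window, the one printed for Pfkfb3, is therefore also wholly inside the gene. The first RefSeq start is downstream by 148 bases for Pfkfb3, 34 for Slc2a1 and 6 for Pfkp, and at the same base for Hk1, Hk2, Gpi1 and Pfkm.

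Among the genes that fell, Slc2a1 had an ACGTG match that began 36 bases before the start and a GCGTG match on the other strand at 61 bases. Hk2 had ACGTG on the other strand at 52 and 226 bases before the start. Pfkfb3 had 1 ACGTG match at 60 bases before its first start, within the first GENCODE exon, and an E-box at 53 bases and GCGTG at 122 bases before its second start. Among the 5 genes that did not pass, cores were as frequent in some windows. Pfkp had GCGTG at 23, 68 and 136 bases before its start. Pfkm had an E-box at 136 bases before its first start, and further cores at 149 and 244 bases before its second start. The core at 149 bases is the same site as the one 234 bases before the third start, because those windows overlap. Hk1 had no core (0) before its first start and 3 before its second, of the form GCGTG, with 2 ACGTG matches after it, the most of the 13 windows at 5 in all. Pfkl had 1 GCGTG match at 99 bases, and Gpi1 none. GC boxes (GGGCGG on either strand) before the start numbered 2 for Slc2a1, 3 for Hk2, 2 before each start of Pfkfb3, 4 for Pfkp, 2 for Gpi1, 1 for Pfkl and 0 for Hk1 and Pfkm.

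The core motif is common. In windows of 300 bases, from 250 before to 50 after the start, 7 of the 8 genes had ACGTG or GCGTG in at least 1 window, against 46.7% of the 27025 genes with a RefSeq promoter. For ACGTG alone the counts were 5 of 8 against 21.8%. An E-box was in 2 of 8 genes against 8.09%, and a GC box in 6 of 8 against 38.2%. The 13 windows of the 8 genes held the core in 10 cases, against 43.8% of all 32851 windows. The share depends on base composition, at 23.5% of windows below 50% GC and 67.9% of those from 60% to 70% GC, and 7 of the 13 windows lay in the latter range, all 7 with the core. Pfkm and Hk1, whose log2 fold changes were 0.21 and -0.14 per the authors' deposited table, also had cores in 3 of 4 and 1 of 2 windows. A match is a string of letters and not a measured binding site.

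**Figure D2:**
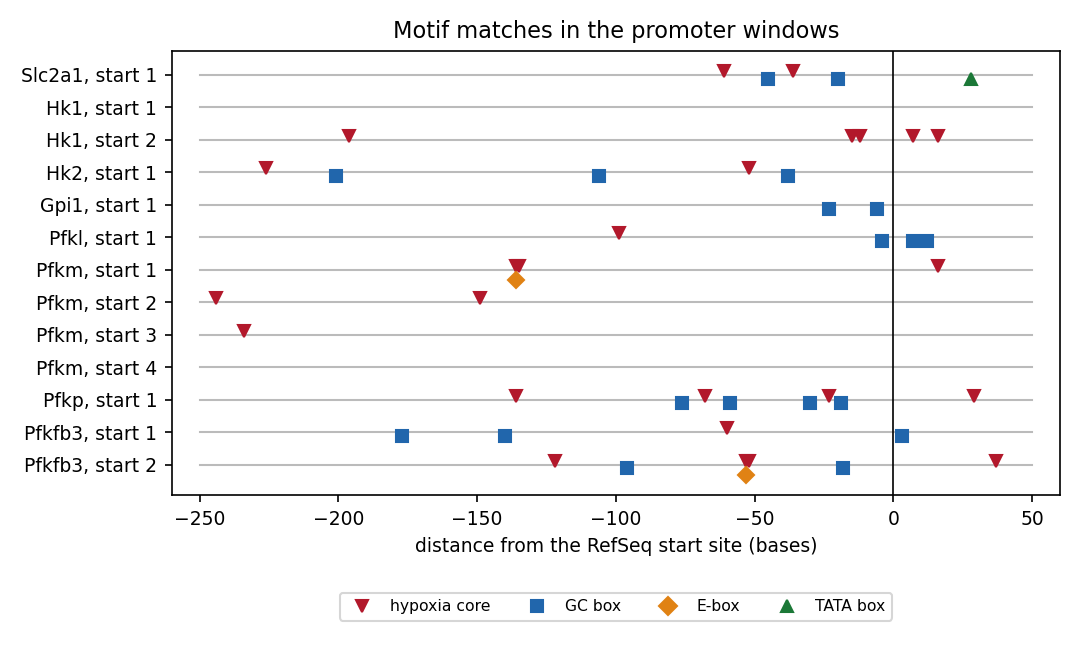
Positions of motif matches on either strand in the 13 RefSeq promoter windows of the 8 genes, in bases from the start site (horizontal axis, upstream negative); each row is 1 start site. The nearest hypoxia cores (red) before the start begin 36 bases before it in Slc2a1 and 52 bases before it in Hk2. In genes that did not pass, cores begin nearer, at 23 bases in Pfkp and 12 bases before the second start of Hk1. The Gpi1 row has GC boxes only.

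Among the phosphofructokinases, the rate-setting enzymes of glycolysis, none passed, and Pfkl had the lowest log2 fold change. Pfkl, the liver-type subunit gene, on chromosome 10 from 77986947 to 78010083 on the minus strand, had a log2 fold change of -0.65 (-1.17 to -0.14), with an unadjusted p of 0.013 per the authors' deposited table. Its adjusted p was 0.45 per the authors' deposited table, so it was the nearest of the 8 genes to the threshold without passing it. Pfkp, the platelet type, on chromosome 13 from 6579768 to 6648777 on the minus strand, had a log2 fold change of -0.35 (-0.77 to 0.07) per the authors' deposited table. Pfkm, the muscle type, on chromosome 15 from 98092589 to 98132451 on the plus strand, had a log2 fold change of 0.21 (-0.36 to 0.77) on a total of 347 per the authors' deposited table. Differences between the subunits were not tested.

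Gpi1, the isomerase gene, on chromosome 7 from 34201330 to 34230336 on the minus strand, had the highest total of the 8 genes at 6480, and a log2 fold change of 0.20 (-0.18 to 0.59) per the authors' deposited table. It had the smallest derived error, 0.20, and an estimated 1.65-fold change would have been needed for it to pass. Its interval lay within 2-fold in both directions, as did those of Hk1, Pfkp and Pfkm, which makes 4 of 8, against 69.1% of all tested genes.

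Levels can be compared between genes only per length, and here only pooled over both groups. Per kilobase of exon, the pooled total was 1004 for Gpi1, 714 for Pfkl, 191 for Pfkp, 163 for Slc2a1, 107 for Hk1, 104 for Pfkm, 70.9 for Pfkfb3 and 28.0 for Hk2, against a median of 66.4 over 11663 genes. Gpi1 and Pfkl thus held the most RNA, at levels above those of 94.6% and 93.1% of genes, and Hk2 the least, above 24.4%. Hk1 was 3.83 times Hk2 on this scale, and 7.06 times with the longest transcript as the length. The hexokinase gene that fell was therefore the minor of the pair. Pfkl made up 70.8% of the summed level of the 3 phosphofructokinase genes, Pfkp 19.0% and Pfkm 10.3%. Because the groups are pooled, a gene that fell owes more of its total to fresh follicles. Splitting each total by the deposited fold change, which takes that fold as the ratio of the summed levels of the groups, gave Slc2a1 127 per kilobase in fresh and 36.3 in vitrified follicles. Pfkp had 107 and 84.0, Hk1 56.2 and 51.0, Pfkm 48.2 and 55.6 on the same split scale. Slc2a1 thus stood above Pfkp in the fresh share, where the pooled order has it below, and under Hk1 and Pfkm in the vitrified share. Such differences between the shares restate the deposited fold changes and are no separate result. Gpi1 and Pfkl stayed highest (467 and 436 fresh, 537 and 277 vitrified) and Hk2 lowest (21.5 and 6.52), and Hk1 was 2.62 times Hk2 in the fresh share and 7.82 times in the vitrified one. With the longest transcript Hk1, at 214 pooled, also stands above Slc2a1, at 176, and none of these levels carries a replicate spread.

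**Figure D3:**
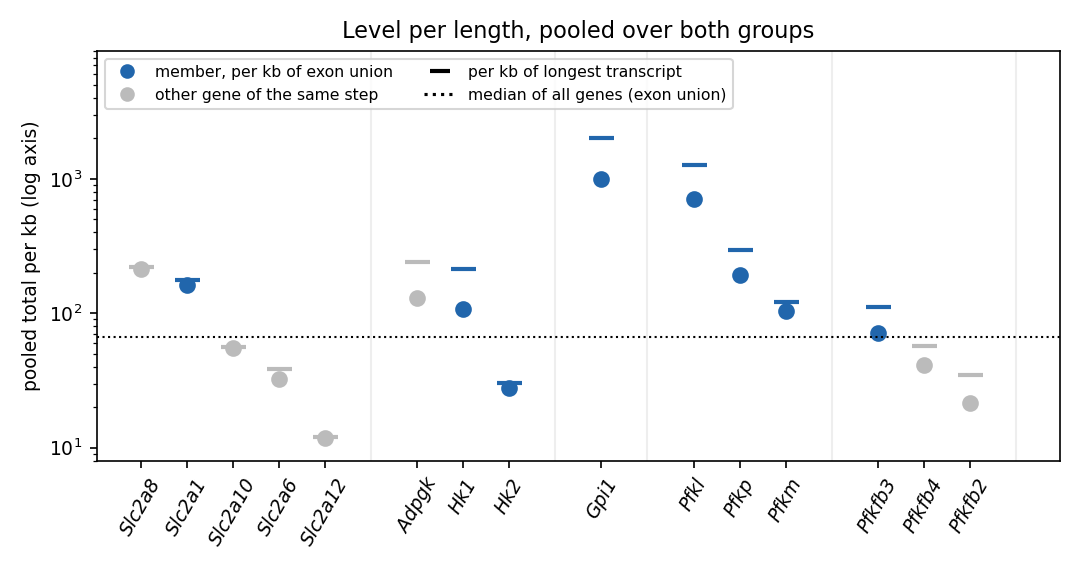
Pooled total per kilobase (vertical log axis) for the 8 genes (blue) and other genes of the same step (grey), per exon union (points) and per longest transcript (dashes), with the median gene as a dotted line. Gpi1 and Pfkl stand highest at 1004 and 714, and Hk2 is at 28.0.

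Of 13 other transporter genes of the SLC2 and SLC5 families 4 had a row and 3 an adjusted p, and none passed in the authors' test, with 0 at an unadjusted p under 0.05. Slc2a8, a largely intracellular transporter, had a pooled level per kilobase of 214, 1.31 times that of Slc2a1, though only 0.832 times in the fresh share and 2.99 times in the vitrified share, and a log2 fold change of 0.04 (-0.35 to 0.43) per the authors' deposited table. Slc2a6 had a log2 fold change of 0.35 and Slc2a12, with a total of 49.7 and no adjusted p, one of -0.59 per the authors' deposited table. Of 13 genes that control transporters at the cell surface 6 were lower and 7 higher, with a median of 0.13 against -0.02 over all tested genes, and none passed, with 1 at an unadjusted p under 0.05. That one, Rab10, a GTPase of transporter vesicles, stood at 0.63 (0.19 to 1.06), with an adjusted p of 0.30 per the authors' deposited table. Txnip and Arrdc4, arrestins that promote the removal of SLC2A1 from the membrane, stood at 0.49 (-0.03 to 1.00) and 0.40 (-0.05 to 0.86), at adjusted p of 0.77 and 0.81 per the authors' deposited table.

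Beside the hexokinases, 5 of 11 further genes for glucose phosphorylation, its reversal and hexokinase docking had a row, and none passed, with 0 at an unadjusted p under 0.05. Vdac1 and Vdac2, the mitochondrial outer membrane channels to which hexokinases bind, had log2 fold changes of -0.23 and -0.13, and the glucose 6-phosphate transporter gene Slc37a4 one of -0.36 per the authors' deposited table. Beside Pfkfb3, Pfkfb2 stood at a log2 fold change of 0.34 (-0.30 to 0.98), Pfkfb4 at -0.04 (-0.62 to 0.55) per the authors' deposited table. They were the 2 of 6 listed genes of fructose 2,6-bisphosphate and fructose 1,6-bisphosphatase control with a row. Pfkfb3 held 53.1% of the summed pooled level per kilobase of these 3 PFKFB genes, with 60.9% in the fresh share and 42.4% in the vitrified share.

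Glucose 6-phosphate and fructose 6-phosphate also feed glycogen, the pentose phosphate pathway and amino sugars. Of 25 tested genes of these branches 12 were lower and 13 higher, with a median of 0.02, and 1 passed. The phosphoglucomutase gene Pgm1, of the step from glucose 6-phosphate to glycogen, fell 1.74-fold (log2 -0.80, -1.22 to -0.37) with an adjusted p of 0.048 per the authors' deposited table. This call was at the threshold, with an adjusted p of 0.051 without a filter on totals and 0.064 after centring on the median gene, and the symbol Pgm1 has been in use for 2 mouse genes. The glycogen synthase gene Gys1 stood at -0.78 (-1.24 to -0.32), with an adjusted p of 0.11 per the authors' deposited table. H6pd and Mpi had log2 fold changes of 0.50 and 0.36 per the authors' deposited table.

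Lower glycolysis, from aldolase to lactate export, had 12 of 14 tested genes lower and 2 higher, a median of -0.23 and no gene that passed, with 2 lower at an unadjusted p under 0.05. Slc16a3, the lactate exporter gene, had the lowest p, with a log2 fold change of -0.92 (-1.51 to -0.33). Its adjusted p was 0.21 per the authors' deposited table. Ldha, the gene of the lactate dehydrogenase subunit that favours lactate, was the other with an unadjusted p under 0.05, and stood at -0.47 (-0.92 to -0.03) on the log2 scale, its adjusted p being 0.66 per the authors' deposited table. Pgam1, a phosphoglycerate mutase gene, had a log2 fold change of -0.38 per the authors' deposited table. Of 29 tested regulators of glycolysis genes 11 were lower and 18 higher, with a median of 0.09, and none passed, with 3 higher at an unadjusted p under 0.05. Epas1, which encodes an oxygen-regulated subunit of hypoxia-inducible factor, stood at 0.66 (0.03 to 1.30), with an adjusted p of 0.67 per the authors' deposited table. Hif1a, which encodes another such subunit, stood at 0.15 (-0.31 to 0.60). Its total was 31173.5, against 3215 for Epas1, per the authors' deposited table. The lowest log2 fold change of the 29 was that of Egln3, at -1.02 (-2.44 to 0.39) on a total of 74.7 per the authors' deposited table. Only RNA was measured, so the activity of hypoxia-inducible factor is not known. Mlxipl, the carbohydrate response factor gene, stood at 1.25 (0.27 to 2.22) on a total of 79.2, and Rptor, of the mTOR complex, at 0.48 (0.14 to 0.83) per the authors' deposited table, with adjusted p of 0.43 and 0.32.

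**Figure D4:**
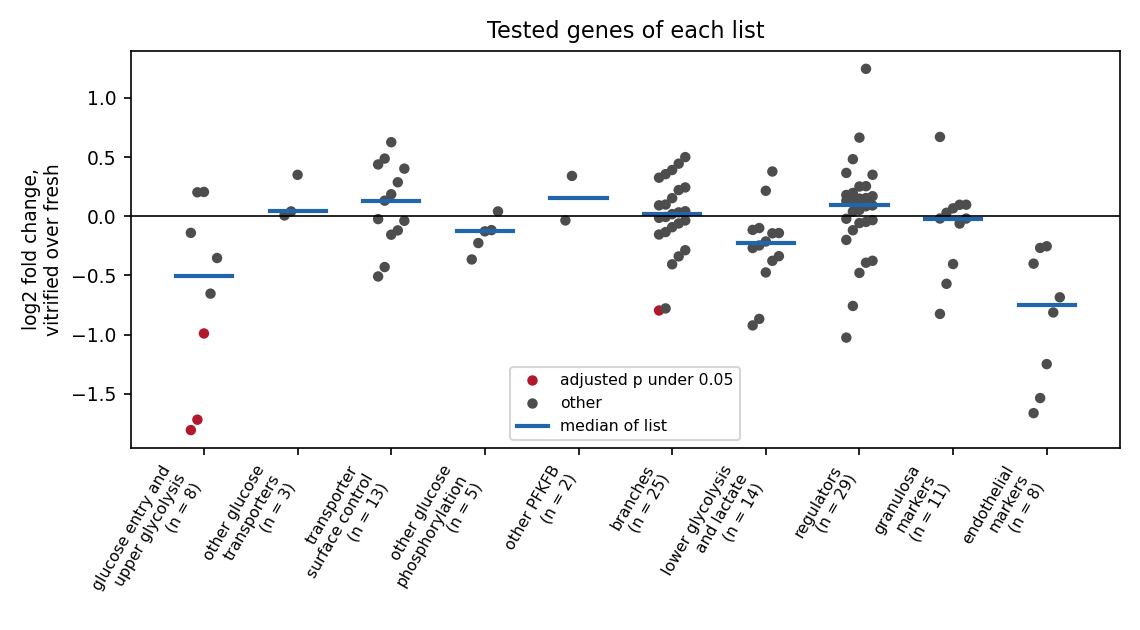
Log2 fold change of vitrified over fresh follicles (vertical axis) for each tested gene of 10 lists (points), with the list median (blue line) and genes past an adjusted p of 0.05 in red. The glucose entry and upper glycolysis genes spread from -1.81 to 0.21 around a median of -0.50, and Pgm1 is the red point among the branches.

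**Figure D5:**
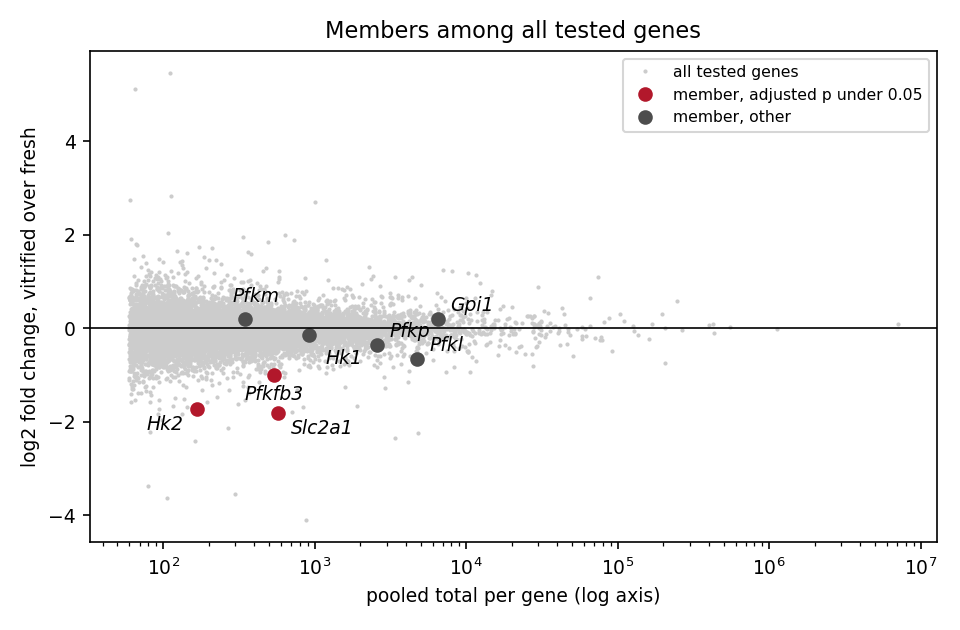
Log2 fold change (vertical axis) against the pooled total (horizontal log axis) for all tested genes (grey) and the 8 genes (red where the adjusted p was under 0.05). Hk2, Slc2a1 and Pfkfb3, at totals of 167, 573 and 536, lie at the lower edge of the genes of like total.

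Markers of other cells were set beside these values. Of 11 endothelial markers 9 had a row, and 8 of the 8 tested were lower, with a median log2 fold change of -0.75, a range of -1.66 to -0.25 and none that passed, with 0 at an unadjusted p under 0.05. Their pooled totals ran from 46.1 to 1912, and the defining markers Tek and Emcn had no row. Cdh5, the junction protein of endothelial cells, stood at -1.66 (-3.45 to 0.13) per the authors' deposited table. The vascular growth factor receptor gene Kdr, without an adjusted p, had a log2 fold change of -1.42 and Eng, a TGF-beta co-receptor gene, one of -0.68 per the authors' deposited table. The median derived error of the tested endothelial markers was 1.11, against 0.29 for Slc2a1 and 0.40 for Hk2. Endothelial cells also express Slc2a1, and their part in the values of Slc2a1, Hk2 and Pfkfb3 was not tested. Of 11 tested granulosa markers 6 were lower and 5 higher, with a median of -0.02 and none that passed, with 3 at an unadjusted p under 0.05. Fshr, the gene of the receptor for the hormone in the medium, stood at 0.67 (0.14 to 1.20) and Fst at -0.82 (-1.48 to -0.17) per the authors' deposited table, with adjusted p of 0.44 and 0.45. The granulosa genes with the highest totals, Inha of inhibin and the gap junction gene Gja1, had log2 fold changes of -0.02 and 0.03 per the authors' deposited table.

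No 50-base window taken from any of the 8 genes occurred in another of them (0 windows). The share of windows found in any other gene was 27.4% for Gpi1, mainly in Gm1840 and in Gm26762 on the opposite strand. For Pfkp the share was 6.44%, all in Pitrm1, which overlaps an exon of Pfkp on the opposite strand. For Pfkm the share was 3.29%, all in Gm26513, which overlaps an exon of Pfkm on the same strand. It was 1.83% for Slc2a1, 0.574% for Pfkfb3 and 0.428% for Hk1, and 0% for Hk2 and Pfkl. Gm1840 does not overlap Gpi1, so strand does not bear on that share. How reads that match both genes, or either strand, were counted is not stated in the sources used here. The values of Gpi1 are uncertain to that extent, and those of Pfkp and Pfkm by their smaller shares.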

How the data were processed

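Single-follicle RNA libraries followed a Smart-seq protocol, per the labels' protocols. Per the submitters' processing notes, mm10 was the build and the tools included DESeq2, Partek, HISAT2 and Bowtie2, with no version or order, and the counting rule is not stated in the sources used here. The authors deposited 1 table with a total per gene, a p-value, a step-up adjusted p, a signed fold and its log2, per the file headers. The header of the total is Total counts, with no scaling stated. The total is read here as a signal that the authors pooled over the 12 libraries before they deposited it. It was whole within 0.001 for 0.237% of genes, so it was not treated as a count and the depth per library is unknown. The deposited signed fold change (a score below 0 where fresh is higher), the log2 fold change and the p-value were used as given. An adjusted p is missing for 843 genes of low total.

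A standard error was derived as log2 fold change over the two-sided normal quantile of the p, signed by direction. The 95% intervals came from it (Python 3.11.15, scipy 1.17.1). The code was checked on simulated data made with the same normal test. That check cannot show whether the authors' p-values are normal, on which the intervals depend. The size needed to pass used the highest unadjusted p that passed, 2.5e-04. Groups came from titles. The planned count model, leave-one-out fits, tool comparison and likeness to other genes need values per follicle and were not run, nor was protein identity. Alternatives were a t distribution, 2 filters on totals, another adjustment, 2 centrings, another gene length, a split of the totals by the deposited fold and a shorter promoter window. Coordinates and lengths came from GENCODE M21 (GRCm38, the assembly called mm10), promoters from RefSeq (GRCm38.p6), where 8 of 8 genes matched. Shared sequence was the share of 50-base windows, taken every 25 bases of each transcript, found in another gene's transcripts.

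The 8 genes, the 7 pathway lists and 7 marker lists were chosen with earlier results of these data known. Named were the 8 genes, in each pathway list those that passed and up to 3 more with the lowest p, and in each marker list up to 2 with the lowest p and 2 with the highest total. Tek and Emcn are named because they had no row, Hif1a as a subunit gene beside Epas1, and Egln3 as the lowest of its list. Genes with shared or overlapping sequence are named by that overlap.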

Additional observations from a re-analysis of the deposited data

How the results depend on the processing

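No paired analysis was possible because the table holds no value per follicle, and leave-one-out fits, another count tool and the replicate numbers as a block were not run for the same reason. The count of 3 genes past the threshold stayed at 3 with a total of at least 120, without a filter and after centring. It was 0 with a t distribution of 10 degrees of freedom, where the lowest adjusted p of any gene was 0.064 and those of Slc2a1, Hk2 and Pfkfb3 were 0.24, 0.62 and 0.81. It was 1 with the Benjamini-Yekutieli adjustment, with Slc2a1 at 6.9e-06, Hk2 at 0.066 and Pfkfb3 at 0.33, while 16 of all tested genes passed. The first loss follows from the heavier tails over 10963 genes, and the sources used here do not give the distribution behind the authors' p-values. Centring on all tested genes or on genes of like total reversed the sign of none of the 8 log2 fold changes (0), and the median of the 8 was -0.48 after centring. Pgm1 had an adjusted p of 0.83 with the t distribution and 0.47 with Benjamini-Yekutieli, besides the losses given above. With the longest transcript as length, Pfkl held 75.4% of the phosphofructokinase level in place of 70.8%, and the ratio of Slc2a1 to Hk1 turned to 0.821 from 1.52. The split of the totals by the deposited fold was chosen after seeing the data. In the fresh share it turned the ratio of Slc2a8 to Slc2a1 to 0.832 and of Pfkp to Slc2a1 to 0.844. In the vitrified share the ratios of Slc2a1 to Hk1 (0.712), Slc2a1 to Pfkm (0.654) and Hk1 to Pfkm (0.918) fell below 1, while Pfkl held 73.7% and 66.5% of the phosphofructokinase level. Before the start alone, the hypoxia core was in 7 of 8 genes, against 41.5% of all genes with a RefSeq promoter. The TATA box (TATAAA) was in 0 of the 8 in place of 1, against 14.3% of all those genes. That 1 was Slc2a1, whose match lies after the start. Hk2, with its low total, needed an estimated change of at least 2.73-fold to pass.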

Other observations

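Of 13 oocyte markers 8 had a row, and 6 of the 6 tested were higher, with a median log2 fold change of 0.81, totals from 49.2 to 326 and none that passed, with 0 at an unadjusted p under 0.05 in the authors' test. Padi6, of the oocyte cytoplasmic lattices, stood at 1.24 (-0.36 to 2.84), Zp2, of the zona pellucida, at 1.29 (-0.39 to 2.97) and the oocyte growth factor gene Gdf9 at 0.43 (-0.63 to 1.48) per the authors' deposited table. Of 8 tested theca and stroma markers 5 were higher and 3 lower, with a median of 0.27 and none that passed, with 2 at an unadjusted p under 0.05. The cholesterol transfer gene Star stood at 1.60 (0.66 to 2.53) and the theca hormone gene Insl3 at 2.70 (1.06 to 4.34), with adjusted p of 0.11 and 0.14 per the authors' deposited table. Hsd3b1 and the luteinizing hormone receptor gene Lhcgr had log2 fold changes of -0.11 and 0.08 per the authors' deposited table.

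Of 6 immune markers only the macrophage lysozyme gene Lyz2 had a row, at -1.05 (-2.05 to -0.05) and an adjusted p of 0.67 per the authors' deposited table. Of 5 surface epithelium markers 3 had a row, with Krt8 at 0.22, Lgr5 at -1.59 and Upk3b at -2.59 per the authors' deposited table, the last 2 at totals of 47.8 and 48.4 and without an adjusted p. Of 5 red blood cell markers 0 had a row.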
